A study of Mus musculus with 14 samples.

Results

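The MYC network factors described here are 10 genes of the deposited count table of 32926 gene symbols, taken by symbol: Myc, Mycn and Mycl, their partner Max, the MAX partners Mxd1, Mxd4, Mxi1, Mnt and Mga, and Mlx. All 10 had a row, and all 10 passed the filter on low counts in every fit. Poly(A) RNA had been sequenced in 14 libraries of cultured mouse small cell lung cancer cells. They comprise 3 libraries of neuroendocrine (NE) lines, 3 of non-neuroendocrine (Non-NE) lines, and a time course of NE cells over-expressing YAP5SA at days 0, 3, 7 and 21, with 2 libraries per day. YAP5SA is a mutant of YAP, the coactivator at the end of the Hippo pathway, that escapes inhibition by phosphorylation. The series compares these states.

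All lines were derived from lung tumours of adult mice of mixed strain with the alleles CGRPCreER/+, Rbf/f, P53f/f and Ptenf/f, that is, Cre expressed under control of the calcitonin gene, together with floxed alleles of 3 tumour suppressors. The labels add an injection of TM, with an interval of 2 months. NE and Non-NE libraries therefore share these deletions with the YAP5SA libraries. Day 0 replicate 2 and all libraries of days 3, 7 and 21 list Rosa26rtTA and Tet-onYAP5SA in addition, and day 0 replicate 1 lists neither. The genotype field of 6 libraries numbers the P53 allele differently from their source text. Whether the replicates of a group are separate tumours, clones or culture dishes is not stated, so p-values measure the spread between these libraries, which may be technical.

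MYC, MYCN and MYCL are basic helix-loop-helix leucine zipper transcription factors that bind DNA only as dimers with MAX. The dimers recognise the E-box CACGTG and raise the transcription of genes for ribosome production, nucleotide synthesis and cell growth. MXD proteins, MXI1, MNT and MGA compete for MAX and repress such genes, the MXD proteins, MXI1 and MNT through the SIN3 corepressor and MGA through the polycomb complex PRC1.6. MLX is another hub, shared by some MXD proteins, MNT and the glucose-responsive MLXIP and MLXIPL. In small cell lung cancer the 3 MYC paralogues are known as alternative drivers, with MYCL tied to neuroendocrine tumours and MYC to less neuroendocrine ones, and MAX and MGA are known as genes lost in some tumours.

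Library totals ran from 6730816 to 10659524 counts. No gene had more counts in NE replicate 2 than in day 0 replicate 1, and its counts matched an 85.7% random draw from that library to little more than sampling noise (chi-square over degrees of freedom 1.02 over 11829 genes, against 1.76 between the day 0 replicates). These libraries are counted as 1 read set, so comparisons with NE and with day 0 share reads, and the members' tests between Non-NE and NE are also given without NE replicate 2. The neuroendocrine markers summed to 2472 to 3987 CPM (the usual depth-scaled count unit, with TMM factors) in NE and 57.2 to 417 CPM in Non-NE libraries, although the calcitonin gene Calca itself was at 0 in all NE libraries. Of the 7 neuroendocrine markers tested, 6 were called lower and 1 higher in Non-NE, where 22.8% of all genes were called lower and 20% higher. The non-neuroendocrine markers summed to 34.7 to 64.8 CPM in NE and 5061 to 10154 CPM in Non-NE. Fibroblast markers summed to 6147 to 14449 CPM in Non-NE, mostly Col1a1, and 2.89 to 7.49 CPM in NE. Over the YAP5SA days the neuroendocrine markers went from 3808 to 4008 CPM at day 0 to 664 to 679 CPM at day 21, and alveolar type 1 markers from 12.2 to 12.7 CPM at day 0 to 4777 to 5245 CPM at day 7 and 2786 to 3189 CPM at day 21. Of the 7 neuroendocrine markers tested, 6 were called lower and 1 higher at day 21 than at day 0 (34% and 37.7% of all genes). The non-neuroendocrine markers summed to 57.8 to 63.2 CPM at day 0, 1149 to 1320 CPM at day 3, 883 to 944 CPM at day 7 and 685 to 695 CPM at day 21. These markers move with every day difference below, and their part in it was not tested. Endothelial markers reached at most 2.33 CPM and immune markers at most 9.84 CPM in any library. The fibroblast markers move with every Non-NE difference below, and their part in it was not tested. In bulk RNA, fewer cells of a type and less RNA per cell cannot be told apart.

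The promoter table of RefSeq (GRCm38.p6) held 9 of the 10 members, all but Myc, in 11 windows. In the 250 bases before the start, the E-box CACGTG (the same on both strands) occurred in windows of 3 members, Mxd4, Mnt and Mlx, and in 6.02% of all 32851 promoters. GGAATG, the core of the TEAD motif through which YAP acts, searched on both strands, occurred in 0 of the 11 windows and in 12.6% of all promoters. The letters are a description and show no binding. The following 4 stretches outside the transcripts are shown for the members whose levels stand out below (Max and Mxi1) and for a pair that carries the E-box (Mnt and Mxd4), each 5′ to 3′ on the gene's strand with the CACGTG in capitals. They are chr12:76962249-76962498 (minus strand) for Max, chr19:53310256-53310505 (plus) for Mxi1, chr11:74830674-74830919 (plus) for Mnt and chr5:34187721-34187960 (minus) for Mxd4.
Max: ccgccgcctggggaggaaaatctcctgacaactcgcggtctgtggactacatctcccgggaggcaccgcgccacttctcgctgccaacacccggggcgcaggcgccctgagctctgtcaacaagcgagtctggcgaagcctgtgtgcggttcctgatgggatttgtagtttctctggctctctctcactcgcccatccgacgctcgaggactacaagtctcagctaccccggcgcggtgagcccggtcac
Mxi1: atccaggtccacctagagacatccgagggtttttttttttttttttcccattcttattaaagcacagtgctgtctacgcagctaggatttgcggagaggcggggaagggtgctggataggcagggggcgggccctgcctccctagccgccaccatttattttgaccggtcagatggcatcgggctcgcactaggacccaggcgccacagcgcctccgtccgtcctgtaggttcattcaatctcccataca
Mnt: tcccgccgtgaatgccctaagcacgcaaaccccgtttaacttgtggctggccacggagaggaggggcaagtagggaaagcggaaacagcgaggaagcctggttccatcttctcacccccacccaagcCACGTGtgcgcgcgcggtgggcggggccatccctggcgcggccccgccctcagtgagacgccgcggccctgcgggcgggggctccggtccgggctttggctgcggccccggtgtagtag
Mxd4: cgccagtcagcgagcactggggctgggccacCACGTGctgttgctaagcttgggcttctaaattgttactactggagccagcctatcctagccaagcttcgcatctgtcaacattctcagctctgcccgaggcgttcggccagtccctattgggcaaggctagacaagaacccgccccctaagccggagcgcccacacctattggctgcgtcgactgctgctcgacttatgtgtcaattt

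Myc (chr15:61985391-61990374, plus strand, mm10) encodes the founding member of the family. Its levels were 662, 29.7 and 438 CPM in NE replicates 1 to 3, and 135, 181 and 150 CPM in Non-NE. The NE group split: replicates 1 and 3 lay above all other libraries, and replicate 2 lay with day 0. Over all 6 libraries Non-NE was not called different from NE (edgeR log2 change -1.31, SE 0.89, adjusted p = 0.276). Without NE replicate 2 Myc was 3.57-fold lower in Non-NE (log2 -1.83, SE 0.25, adjusted p = 0.00461). Over the YAP5SA days Myc stood at 29.9 and 29.2 CPM at day 0, 70.3 and 71.2 at day 3, 176 and 176 at day 7, and 90.1 and 95.4 at day 21. No 2 days overlapped, and the highest level stood at day 7. Myc was 2.37-fold above day 0 at day 3 (log2 1.25, SE 0.09, adjusted p = 6.46e-12), 6.01-fold at day 7 (log2 2.59, SE 0.08, adjusted p = 2.05e-19) and 3.20-fold at day 21 (log2 1.68, SE 0.08, adjusted p = 2.51e-15). From day 7 to day 21 it fell 1.88-fold (adjusted p = 1.62e-10 in edgeR). The day tests rest on the small spread between the 2 libraries of a day (biological coefficient of variation 0.0548). In a fit that pools the spread of all 14 libraries the changes kept their size, and the adjusted p was 0.522 at day 3, 0.0516 at day 7 and 0.182 at day 21. Of the other members' calls against day 0, those of Mxi1 at all 3 days, Mxd1 at days 7 and 21 and Mycn at day 7 (adjusted p = 0.0499) held in that fit, and the rest were lost.

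Mycl (chr4:122995652-123002485, plus strand), the paralogue named after its discovery in lung cancer, ran at 84.2, 79.7 and 6.14 CPM in NE and 1.93, 7.81 and 2.75 CPM in Non-NE. NE replicate 3 lay among the Non-NE libraries, so the groups overlapped. Non-NE was 13.8-fold lower in edgeR (log2 -3.79, SE 1.03, adjusted p = 0.0238). This call was lost without NE replicate 1 (adjusted p = 0.0648), without NE replicate 2 (0.0622), without Non-NE replicate 1 (0.0706) and without Non-NE replicate 3 (0.0801), and with limma-voom (0.135). In the YAP5SA series Mycl held 79.2 and 73.7 CPM at day 0, 50.2 and 54.0 at day 3, 25.5 and 23.8 at day 7, and 28 and 29.1 at day 21. It fell 1.48-fold by day 3, 3.07-fold by day 7 and 2.63-fold by day 21 (log2 -1.39, SE 0.09, adjusted p = 1.15e-12 in edgeR for the last). In the fit of all 14 libraries the adjusted p was 0.841, 0.179 and 0.238. Day 21 stood slightly above day 7 without passing the test (log2 0.23, adjusted p = 0.0829 in edgeR).

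Mycn (chr12:12936093-12941914, minus strand), the paralogue of nerve cell progenitors, was low everywhere. NE libraries held 6.07, 2.53 and 2.01 CPM, and the Non-NE libraries held 1 count in all against 105 in NE, a ratio of 86.7 after scaling (95% counting interval 15.2 to 3457). Non-NE was called lower (edgeR adjusted p = 0.00323, and 0.0107 without NE replicate 2). The YAP5SA libraries held 2.92 and 2.42 CPM at day 0, 3.91 and 1.76 at day 3, 9.09 and 8.88 at day 7, and 9.63 and 8.24 at day 21. Day 3 overlapped day 0, while both later days lay above it. Mycn was 3.39-fold above day 0 at day 7 (log2 1.76, SE 0.25, adjusted p = 8.69e-07 in edgeR) and 3.41-fold at day 21 (log2 1.77, SE 0.25, adjusted p = 7.22e-07 in edgeR). These levels rest on 19 to 101 counts per library.

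**Figure D1:**
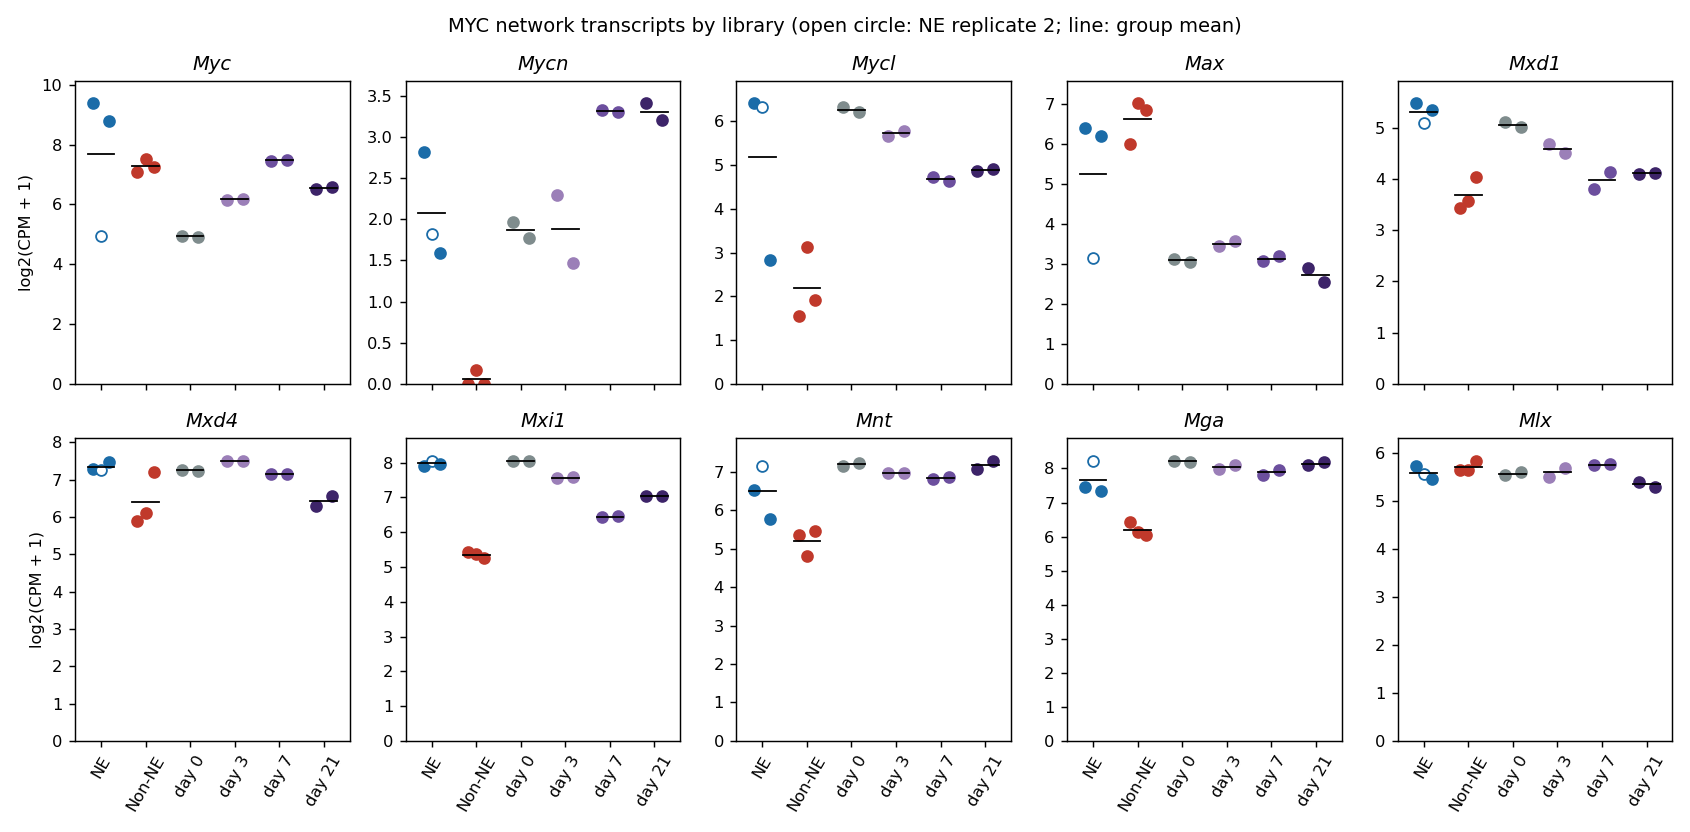
Levels of the 10 members in each library as log2(CPM + 1), by group, with points for libraries, a line for the group mean and an open circle for NE replicate 2. NE replicate 2 lies with day 0 for Myc and Max, and the 8 YAP5SA libraries hold Max at 4.85 to 10.8 CPM.

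To compare the paralogues with each other, CPM was divided by the exon length of each gene in kb. Myc made up 91.5% and 98.7% of the summed paralogue level in NE replicates 1 and 3, and 97.1% to 99.0% in the Non-NE libraries. At day 0 Mycl led with 62.3% and 61.4% of the sum, and Myc held 34.9% and 36.1%. Myc reached 65.5% and 65.3% at day 3, 87.7% and 88.3% at day 7, and 77.1% and 78.3% at day 21. The leading paralogue transcript thus changed from Mycl to Myc between day 0 and day 3, with no overlap between the days in either share. Mycn held at most 6.79% of the sum in any library. The sum itself rose from 31.5 and 29.7 CPM per kb at day 0 to 73.7 and 73.4 at day 7 and stood at 43.0 and 44.8 at day 21, against 266 and 163 in NE replicates 1 and 3. With the longest transcript as length the shares of Myc moved by less than the spread between libraries in every group.

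**Figure D2:**
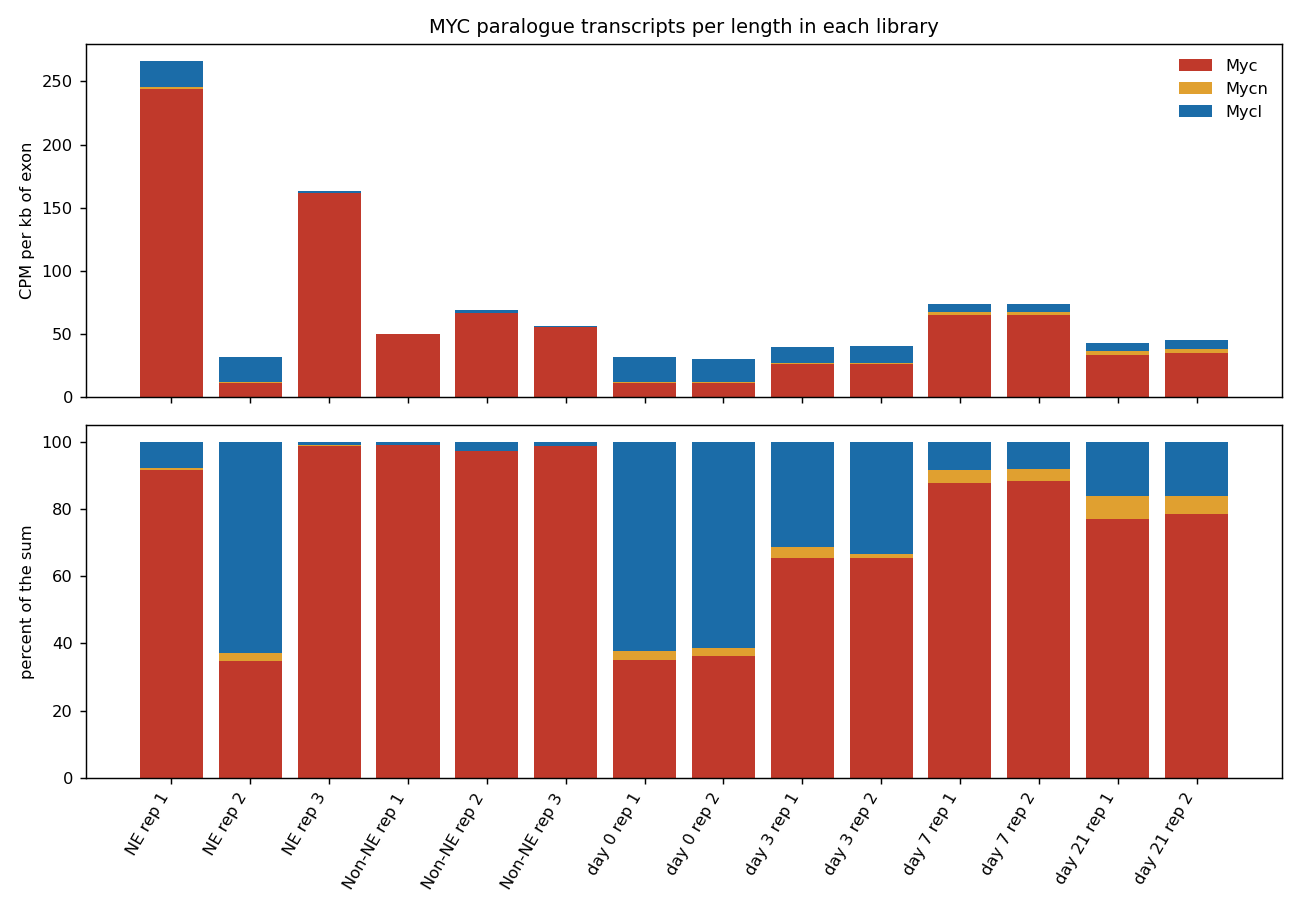
Transcript level of Myc, Mycn and Mycl per kb of exon in each library, as CPM per kb (top, stacked from 0) and as percent of their sum (bottom). Mycl is the larger part in NE replicate 2 and at day 0 (61.4% to 62.8%), and Myc is the larger part in all other libraries.

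The high Myc level of NE replicates 1 and 3 was examined beside the genes around it. Pvt1, the long noncoding RNA next to Myc, held 309 and 409 CPM in these libraries, 8.48 in NE replicate 2, 8.29 and 7.15 at day 0, and 16.6 to 18.8 in Non-NE. Fam84b, before Myc, held 1710 and 2637 CPM against 119 and 120 CPM at day 0. Within 5 Mb of Myc, 29 other genes had a mean of at least 10 CPM in NE replicates 1 and 3 or at day 0. A gene could thus enter through the group in which it was high. Of the 29, 6 were at least 4-fold higher in the mean of NE replicates 1 and 3 than at day 0. The same count was 0 of 53 around Max, 0 of 70 around Mycl and 0 of 23 around Mycn. The 2 replicates differed farther out: of 20 genes 2 to 5 Mb before Myc, 13 were at least 2-fold above day 0 in NE replicate 3 and 0 in NE replicate 1. Sqle, a cholesterol synthesis enzyme gene in that stretch, held 1185 CPM in NE replicate 3 and 186 CPM in replicate 1. None of the 5 genes 2 to 5 Mb after Myc was at least 2-fold above day 0 in either. Their median log2 ratio to day 0 was -0.30 in NE replicate 1 and -1.31 in NE replicate 3. These windows were chosen after the Myc values were seen and carry no test, and DNA copy number was not measured.

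**Figure D3:**
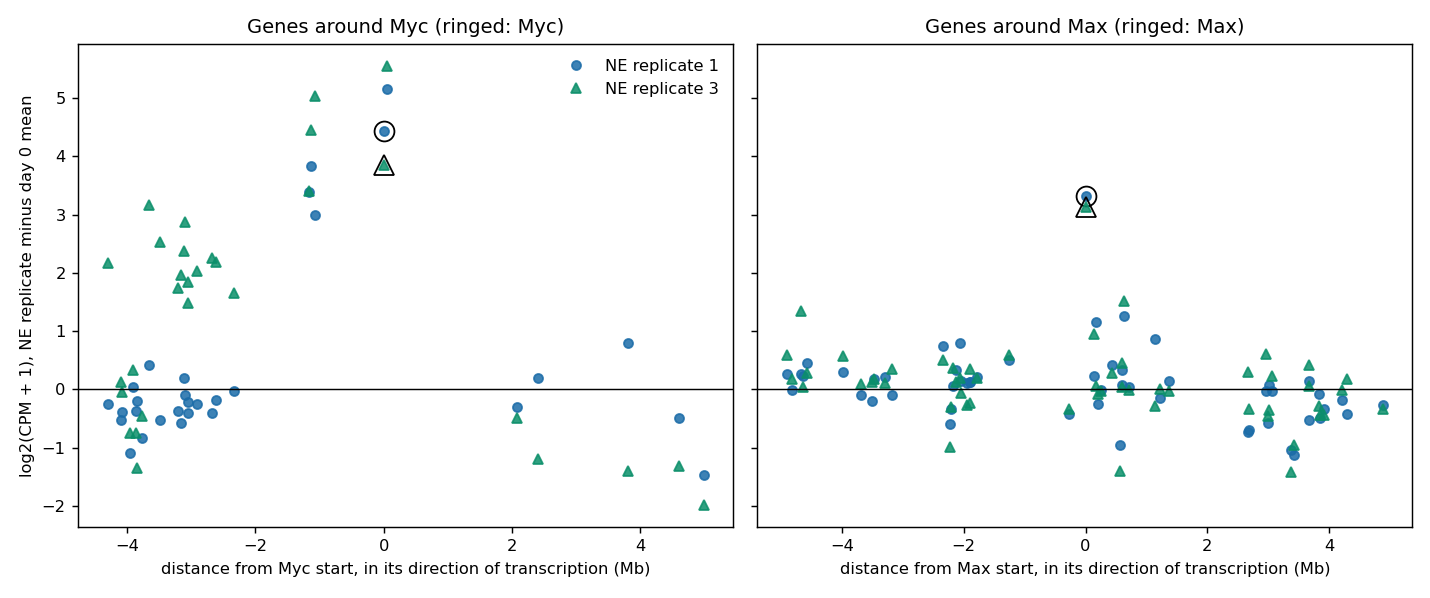
Difference in log2(CPM + 1) between NE replicate 1 or 3 and the day 0 mean for genes within 5 Mb, plotted by distance in Mb from the start of Myc (left) and Max (right), with the named gene ringed. Pvt1 and Fam84b lie far above 0 in both replicates, and Max stands alone among its 53 neighbours.

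Among the genes listed as neighbours, Pvt1 did not follow Myc over the days: it was 2.02-fold lower at day 7 than at day 0 (adjusted p = 0.0002 in edgeR) and did not pass the test at day 3 or day 21. Fam49b and Asap1, after Myc, changed by less than 1.35-fold in any of the 3 tests against day 0. Fam49a, before Mycn, was 5.99-fold above day 0 at day 21, from 3.01 and 2.51 CPM to 17.6 and 14.9 CPM, and 5.71-fold at day 7. Ddx1, on the other side of Mycn, did not pass the test at any day against day 0. Around Mycl, Cap1 and Ppt1 were 1.87-fold and 2.47-fold higher at day 21, where Mycl was lower, and Trit1 did not pass the test at that day. At day 7, 3 of the 4 listed neighbours of Mycl were called higher than at day 0, where 37.2% of all genes were called higher and 33.8% lower. Trit1 was called lower there, like Mycl (1.30-fold, adjusted p = 0.00397 in edgeR).

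Max (chr12:76937269-76962201, minus strand), the obligate partner of MYC, split the libraries into a high and a low set. It held 84.1 and 73.6 CPM in NE replicates 1 and 3 and 63.4, 129 and 114 CPM in Non-NE, but 7.93 CPM in NE replicate 2, 7.72 and 7.34 at day 0, 9.98 and 10.8 at day 3, 7.45 and 8.16 at day 7, and 6.49 and 4.85 at day 21. All 8 YAP5SA libraries and NE replicate 2 held at most 10.8 CPM, and the lowest of the other 5 libraries held 63.4. Day 0 was 10.5-fold below NE replicates 1 and 3 in a fit of 13 libraries (log2 -3.40, SE 0.31, adjusted p = 0.000245 in edgeR). In that comparison, which was added after the values were seen, 6.26% of 14820 genes were called, 3.31% higher and 2.95% lower, and 3 members were called: Myc (18.8-fold lower at day 0, adjusted p = 7.90e-06) and Max lower, and Mga 1.74-fold higher (adjusted p = 0.0151). The Mga call was lost without day 0 replicate 1 (adjusted p = 0.130), day 0 replicate 2 (0.106) or NE replicate 3 (0.0531), and all 3 calls were lost with NE replicate 2 included (adjusted p = 0.808 for each in edgeR). Non-NE was not called different from NE (log2 0.86, SE 0.76, adjusted p = 0.395 in edgeR), nor without NE replicate 2 (log2 0.36, adjusted p = 0.427). A pair of neighbours was not low with it: Fntb held 57.5 and 64.5 CPM at day 0 against 51.4 and 57.5 CPM in NE replicates 1 and 3, and Fut8 held 59.1 and 58.2 against 43.5 and 46.4 CPM. Of 3620 stretches of 50 bases in the Max transcripts, 1 also occurred in a transcript of another gene. Over the days Max stayed at 50 to 117 counts per library. It was 1.37-fold above day 0 at day 3 (log2 0.45, adjusted p = 0.0319 in edgeR), a call lost without either day 0 library (adjusted p = 0.0913 and 0.150) and without day 3 replicate 2 (0.148), and did not pass the test at day 7 or 21.

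Per length, the other MAX partners exceeded Max most in the YAP5SA libraries and NE replicate 2 (72.6 times). The summed level of the 3 paralogues and of Mxd1, Mxd3, Mxd4, Mxi1, Mnt and Mga was 74.6 and 76.6 times that of Max at day 0, and 48.8 to 100.5 times at the later days. It was 15.7 and 12.6 times in NE replicates 1 and 3 and 2.90 to 5.00 times in Non-NE. The size of these ratios depends on the length used. With the longest transcript they were 51.4 and 52.7 at day 0 and 33.7 to 65.7 at the later days. They were then 10.3 and 8.50 in NE replicates 1 and 3 and 1.93 to 3.33 in Non-NE. These are ratios of transcripts, not of proteins.

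Mxi1 (chromosome 19, also called Mxd2), a repressor that takes MAX away from MYC, gave the difference with the smallest SE of the 10 members. It held 238, 266 and 249 CPM in NE and 42.1, 40.8 and 37.2 CPM in Non-NE, with no overlap. Non-NE was 6.4-fold lower (edgeR log2 -2.68, SE 0.16, adjusted p = 6.06e-05), and leaving out any library kept the log2 change between -2.71 and -2.61. From 266 and 264 CPM at day 0 it went to 188 and 190 at day 3, 85.1 and 87.0 at day 7, and 130 and 130 at day 21. That is 1.42-fold, 3.05-fold and 2.00-fold lower than day 0 (adjusted p = 2.28e-12 in edgeR at day 21), with a rise of 1.52-fold from day 7 to day 21 (adjusted p = 2.32e-07 in edgeR).

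Mxd1, a repressor that rises as cells differentiate, was 3.28-fold lower in Non-NE (edgeR log2 -1.71, SE 0.28, adjusted p = 0.00305, and 0.00862 without NE replicate 2), at 9.80, 10.9 and 15.6 CPM against 43.6, 33.4 and 39.8 CPM. It fell from 33.8 and 31.3 CPM at day 0 to 13.1 and 16.7 at day 7 and 16.2 and 16.4 at day 21, which is 1.96-fold lower (adjusted p = 1.56e-07 in edgeR). Mxd4, a close relative, did not pass the test between Non-NE and NE (log2 -0.85, adjusted p = 0.0984 in edgeR). Its Non-NE libraries stood at 58.3, 68.1 and 147 CPM, and without Non-NE replicate 3 it was called lower (log2 -1.37, adjusted p = 0.00527). Over the days Mxd4 stood at 151 and 150 CPM, then 179 and 181, 140 and 142, and 77.8 and 93.5. It was 1.18-fold above day 0 at day 3, a call lost without either day 0 library, and 1.73-fold below it at day 21 (log2 -0.79, SE 0.08, adjusted p = 3.01e-09 in edgeR). Of the 50-base stretches of Mxd4, 5.39% are shared with other genes, mostly Gm42846.

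Mnt and Mga, the largest MAX partners, were lower in Non-NE and changed by at most 1.28-fold in any test between days. Mnt held 39.8, 27.2 and 43.0 CPM in Non-NE against 91.7, 142 and 54.2 in NE (2.66-fold lower, adjusted p = 0.0230 in edgeR). The call was lost without NE replicate 1 (adjusted p = 0.0598), NE replicate 2 (0.0727), Non-NE replicate 1 (0.0526) or Non-NE replicate 2 (0.0726). Mga held 84.3, 68.7 and 64.5 CPM in Non-NE against 174, 300 and 161 in NE, with no overlap (2.98-fold lower, adjusted p = 0.00466 in edgeR, and 2.31-fold with adjusted p = 0.0106 without NE replicate 2). NE replicate 2 was again with day 0, at 300 and 289 CPM for Mga and 142 and 148 for Mnt. Both fell slightly by day 7, Mnt 1.27-fold (adjusted p = 0.000428) and Mga 1.23-fold (adjusted p = 0.000902 in edgeR). At day 21 Mnt held 133 and 156 CPM and Mga 271 and 288 CPM, and neither passed the test against day 0.

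Mlx, the partner hub of the glucose-responsive factors, varied least of the 10 over the 14 libraries. It held 51.5, 45.9 and 42.8 CPM in NE and 49.1, 48.9 and 56.1 CPM in Non-NE, and the groups overlapped (log2 0.11, SE 0.19, adjusted p = 0.675 in edgeR, and 0.721 without NE replicate 2). Its lowest level, 40.9 and 38.0 CPM, stood at day 21, 1.32-fold below day 7 (adjusted p = 0.00109 in edgeR). Of its 50-base stretches 15.8% are shared, mostly with Psmc3ip, which overlaps it, and the strand setting of the counting is not given in the sources used here.

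Ordered per length by group mean, Myc led in NE (where NE replicate 2 placed it below Mxi1) and in Non-NE, Mxi1 at days 0 and 3, and Myc at days 7 and 21. In Non-NE the mean was 57.1 CPM per kb for Myc, 28.5 for Max and 25.7 for Mlx, and Max and Mlx overlapped. At day 0 it was 38.8 CPM per kb for Mxi1, 31.4 for Mnt, 23.2 for Mlx, 19.2 for Mga, 18.9 for Mycl, 17.8 for Mxd4 and 10.9 for Myc, and among these Mga and Mycl overlapped. At day 21 Myc at 34.1 and Mnt at 31.2 CPM per kb overlapped, as did Mlx and Mxi1. Max was next to last at days 0, 3 and 7, overlapping Mxd1 at day 7, and last at day 21 with 1.57 CPM per kb. Mycn was last in NE, Non-NE and at days 0 and 3. This order depends on the length used. With the longest transcript as length, Mxd4 led at day 3 (38.9 CPM per kb against 37.5 for Mxi1). Mxd4 was then second at day 0 (32.6 against 31.7 for Mnt). The mean of Max then lay above that of Mxd1 at day 3 (5.36 against 4.99), where their libraries overlapped, and at day 7 (4.02 against 3.19). In Non-NE Max no longer overlapped Mlx (52.7 against 26.1) but overlapped Myc, which led with 66.4. At day 21 Myc no longer overlapped Mnt (39.7 against 31.4).

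Counted together, 6 of the 10 members passed the test between Non-NE and NE and all 6 were lower (Mycn, Mycl, Mxd1, Mxi1, Mnt and Mga), where 42.8% of all genes were called and 22.8% were called lower. Without NE replicate 2 there were 5, all lower: Myc came in, and Mycl and Mnt dropped out. In that fit 34.3% of all genes were called in either direction. At day 3, 3 members were higher than at day 0 and 5 lower, where 48.6% of all genes were called, 26.2% higher and 22.4% lower. At day 7, 2 were higher (Myc and Mycn) and 5 lower (Mycl, Mxd1, Mxi1, Mnt and Mga), with 71% of all genes called, 37.2% higher and 33.8% lower. At day 21, 2 were higher (Myc and Mycn) and 4 lower (Mycl, Mxd1, Mxd4 and Mxi1), with 71.7% of all genes called, 37.7% higher and 34% lower. Between day 3 and day 7, 2 rose and 4 fell (55.6% of genes called, 29.5% higher and 26.1% lower). Between day 7 and day 21, Mxi1, Mnt and Mga rose and Myc, Mxd4 and Mlx fell (50.3% of genes called, 26.1% higher and 24.2% lower). At days 7 and 21 the 7 and 6 members called lie near the share of all genes, so the count there is no result about the members.

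**Figure D4:**
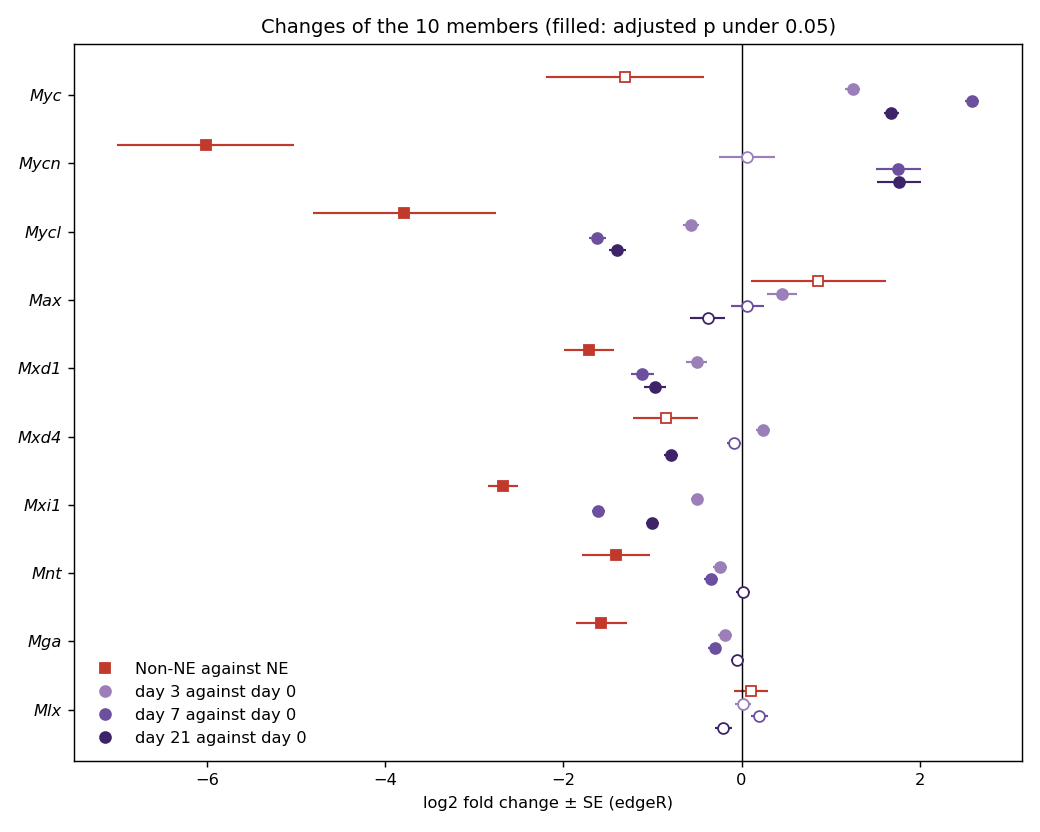
Log2 fold changes of the 10 members with SE from edgeR, for Non-NE against NE (squares) and days 3, 7 and 21 against day 0 (circles), filled where the adjusted p is under 0.05. Myc is positive at all 3 days (1.25 to 2.59) and negative in Non-NE against NE, where its SE is 0.89.

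Day 21 was then set against Non-NE in the fit of 13 libraries, in which line and state cannot be told apart. Of the 10 members 8 were called, 5 higher at day 21 (Mycn, Mycl, Mnt, Mga and Mxi1) and 3 lower (Myc, Max and Mlx, the last in 8 of 13 fits that leave out 1 library), where 55.3% of all genes were called, 30.8% higher and 24.5% lower. Max was 18.2-fold lower (log2 -4.19, SE 0.31, adjusted p = 2.79e-06 in edgeR) and Myc 1.69-fold lower (log2 -0.76, adjusted p = 0.00467), a call lost in the fit of all 14 libraries (adjusted p = 0.441). Mxi1 was 3.21-fold higher, Mnt 3.88-fold and Mga 3.81-fold. For Mycn the pooled counts were 186 against 1, a ratio of 213.5 (95% counting interval 37.9 to 8478). Mycl was 6.71-fold higher (adjusted p = 0.0185 in edgeR), a call lost without either day 21 library or without Non-NE replicate 1 or 3.

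The change from day 0 to day 21 was also tested against the change from NE replicates 1 and 3 to Non-NE. It differed for 4 members, where 32.8% of all genes were called, 21.2% higher, and the median gene differed by 0.12 on the log2 scale. Myc rose in one and fell in the other, a log2 difference of 3.47 (SE 0.26, adjusted p = 6.22e-06 in edgeR). Mycn differed by 7.95 (SE 1.07, adjusted p = 0.000358), a value that depends on the near absence of counts in Non-NE. Mxi1 fell in both and less over the days, with a difference of 1.57 (SE 0.15, adjusted p = 3.56e-05). Mga was lower in Non-NE and not called different between day 21 and day 0, with a difference of 1.13 (SE 0.20, adjusted p = 0.00221). Mycl (2.00, SE 1.19) and Max (-0.79, SE 0.40) did not pass. With NE replicate 2 included the difference for Myc was 2.93 and the adjusted p 0.0714.

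The 5 further genes of the wider MAX and MLX network were Mxd3, Mlxip, Mlxipl, Bmyc and Mycs. Mlxipl, which encodes the carbohydrate response factor ChREBP, held 18.8, 33.2 and 8.04 CPM in NE and 2 counts in all of Non-NE against 572 in NE, a ratio of 236 (95% counting interval 65.1 to 1955). This interval leaves out the spread between libraries, and the ratio includes NE replicate 2. Without that library Mlxipl was 140-fold lower in Non-NE (log2 -7.13, SE 0.88, adjusted p = 0.00314 in edgeR). In the YAP5SA series it fell from 32.7 and 31.2 CPM to 6.33 and 4.49 at day 7 and stood at 7.73 and 10.6 at day 21, 3.43-fold below day 0 (adjusted p = 5.75e-11 in edgeR). Mlxip, its relative MondoA, was 1.96-fold lower in Non-NE (adjusted p = 0.0162 in edgeR), a call lost when NE replicate 1 or 3 or Non-NE replicate 2 was left out, and it did not pass the test at any day. Mxd3, an MXD repressor of dividing cells, did not pass between Non-NE and NE and was 2.73-fold below day 0 at day 21, at 13.5 and 13.5 CPM against 39.7 and 35.2 CPM (adjusted p = 8.52e-11 in edgeR). The proliferation markers summed to 2952 to 3102 CPM at day 0 and 1417 to 1446 CPM at day 21, and their part in this was not tested. Bmyc, a brain-expressed relative of Myc, held 265 counts in NE and 3 in Non-NE, a ratio of 72.9 (24.7 to 356), although 60.9% of its 50-base stretches also occur in other genes, mostly A230005M16Rik. Without NE replicate 2 Bmyc was 58.5-fold lower in Non-NE (adjusted p = 0.0143 in edgeR). Mycs was at 0 in every library, below a floor of 3 counts per library (0.278 to 0.482 CPM).

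Genes whose products act with MYC or control its turnover are given next. Of 18, 3 passed the test between Non-NE and NE, all lower: Fbxw7 and Gsk3b, which mark MYC for degradation (2.53-fold and 2.22-fold), and Usp28, which opposes it (2.29-fold). That count lies below the share of all genes, of which 42.8% were called and 22.8% were called lower. The count without NE replicate 2 covers 17 of the 18 genes. Of these 1 was called, and it was lower, where 34.3% of all genes were called in either direction. At day 21 against day 0, 4 were higher and 8 lower, a total near the 71.7% of all genes called (37.7% higher and 34% lower). Fbxw7 was at 66.1 ± 3.22 CPM at day 21 (SD, n = 2) against 138 ± 4.70 at day 0 (2.05-fold lower), Usp28 was 1.97-fold lower and the F-box gene Skp2 1.76-fold lower. Trrap, a scaffold of the acetyltransferase complexes that MYC recruits, was 1.29-fold higher, and the MYC partner Zbtb17 (MIZ1) was 1.24-fold higher. The list's median log2 change was -0.16, against 0.02 over all genes.

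The SIN3 corepressor, which MXD, MXI1 and MNT proteins use, was represented by 15 genes. Between Non-NE and NE 2 were called, Brms1 (1.83-fold) and Sin3b (1.62-fold) higher, and neither call held without NE replicate 2. Of all genes 42.8% were called, 20% higher and 22.8% lower. At day 21, 11 of the 15 were lower than at day 0 and 2 higher (median log2 -0.41 against 0.02 for all genes, of which 34% were lower and 37.7% higher). Hdac1, the histone deacetylase of the complex, was 1.79-fold lower at 19.7 ± 1.86 against 36 ± 4.81 CPM, Ing1 1.76-fold and Sap30 1.57-fold lower. The scaffold Sin3b was 1.38-fold and Sap130 1.2-fold higher. Of the 9 partners of MGA in PRC1.6, 1 was called between Non-NE and NE, against the same 42.8% of all genes. This was Pcgf6, the subunit that defines the complex. It held 29.4, 29.4 and 18.3 CPM in Non-NE and 80.8, 69.9 and 73.3 CPM in NE (2.97-fold lower, adjusted p = 0.00268 in edgeR). Without NE replicate 2, 1 of the 9 was called higher and 1 lower, where 34.3% of all genes were called in either direction. At day 21, 3 of the 9 were higher than at day 0, among them the ubiquitin ligase Rnf2 (1.64-fold), and 5 lower, among them Cbx3, L3mbtl2 and Pcgf6 (1.58-fold to 1.6-fold), against 37.7% and 34% of all genes.

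Ribosome biogenesis genes, the most general class of MYC targets, were higher in Non-NE. Of 28 genes 22 were called higher in Non-NE and the other 6 did not pass, with a median log2 change of 0.99 against -0.02 over all genes (20% of all genes were called higher). Without NE replicate 2, 18 were higher and the median was 0.97, where 34.3% of all genes were called in either direction. Nop2, a ribosomal RNA methyltransferase, held 168, 207 and 182 CPM in Non-NE and 67.7, 42.7 and 50.4 CPM in NE (3.39-fold, adjusted p = 0.00111 in edgeR), and Rrp9 and Bop1, which act in ribosomal RNA processing, were 3.43-fold and 3.22-fold higher. At day 7, where Myc was highest, 14 were above day 0 and 5 below (median 0.19 against 0.03). At day 21, 14 were above and 4 below (median 0.19), with Nop2 at 77.5 and 81.2 CPM against 43.1 and 42.8 (1.88-fold), Las1l 1.77-fold and Mybbp1a 1.65-fold higher, and the snoRNP gene Nop56 1.58-fold lower. Of all genes 37.2% were called higher at day 7 and 37.7% at day 21. Without day 0 replicate 1 the counts were 10 higher and 2 lower at day 7, and 11 and 3 at day 21, where 62.0% and 63.4% of all genes were called in either direction. At day 21, 23 of the 28 were below Non-NE and the other 5 did not pass, where 24.5% of all genes were called lower.

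Nucleotide and polyamine synthesis genes were mixed. Of 22, 11 were higher and 1 lower in Non-NE (median log2 0.67), against 20% and 22.8% of all genes. The counts without NE replicate 2 were 9 and 1, where 34.3% of all genes were called in either direction. Odc1, the rate-limiting enzyme of polyamine synthesis and a classical MYC target, held 59.6, 122 and 77.5 CPM in Non-NE and 40.2, 30.2 and 26.6 CPM in NE (2.62-fold, adjusted p = 0.0118 in edgeR). The purine genes Impdh2 and Atic were 2.51-fold and 2.37-fold higher, and Impdh1, the other isoform of that enzyme, 2.55-fold lower. At day 21, 7 were above day 0 and 12 below (median -0.20), against 37.7% and 34% of all genes. Odc1 rose 3.13-fold, from 31.1 and 27.7 to 95.5 and 85.3 CPM (adjusted p = 4.78e-14 in edgeR), and Ctps 1.98-fold and Mthfd1 1.51-fold. Tyms, the thymidylate enzyme of DNA synthesis, fell 2.67-fold, Impdh1 2.25-fold and Nme1 1.93-fold. The fall of Tyms moves with that of the proliferation markers, whose part was not tested.

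**Figure D5:**
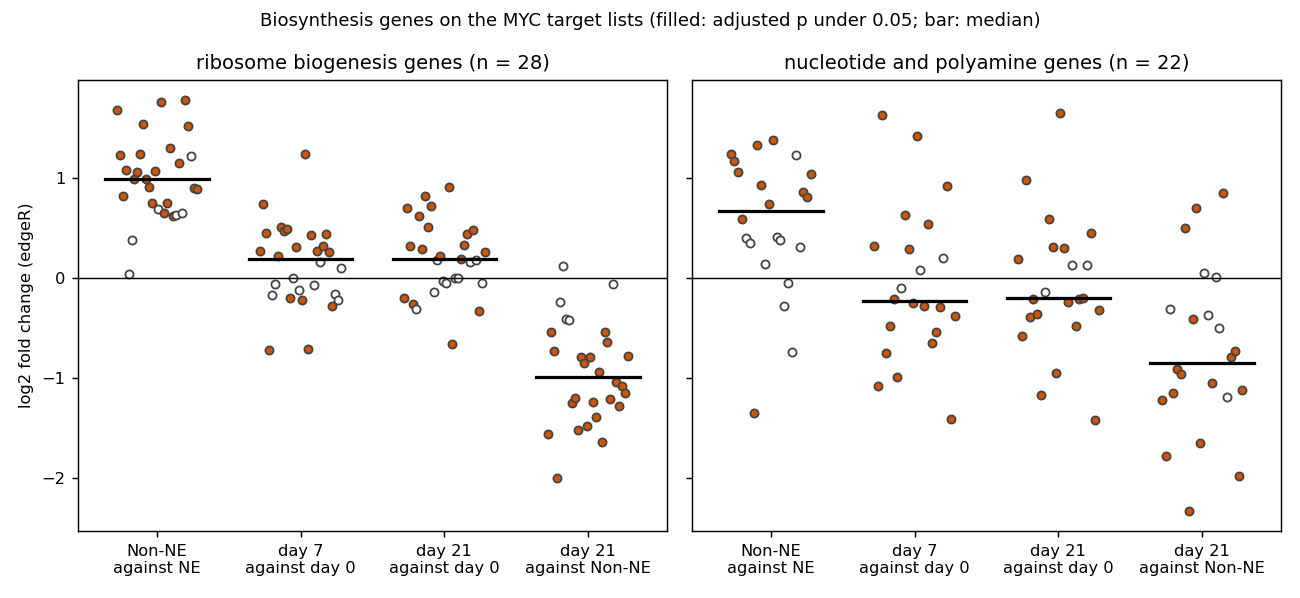
Log2 fold changes from edgeR of 28 ribosome biogenesis genes (left) and 22 nucleotide and polyamine genes (right) in 4 comparisons, with points for genes (filled where the adjusted p is under 0.05) and a bar for the median. The medians of the ribosome list are 0.99 in Non-NE against NE, 0.19 at days 7 and 21 against day 0, and -0.98 at day 21 against Non-NE.

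Genes with the most similar profiles were sought for each paralogue, by Pearson correlation of log2(CPM + 1) over the 13 libraries without NE replicate 2, among 11119 genes with at least 10 CPM in the mean of some group. The libraries share lines and culture sets, so the values describe these libraries and carry no p. For Myc these were Stx17, a syntaxin of autophagosomes (r = 0.888), Stk39 (0.871) and Plekha5 (0.865). For Mycn they were Lrtm2 (0.974), Egflam (0.968) and Ap1s3 (0.964), and for Mycl Cnpy1 (0.965), Kndc1 (0.964) and Sec11c (0.961). Cnpy1 followed the split of the NE group seen for Mycl, at 176 CPM in NE replicate 1, 103 and 98.5 at day 0 and 0.423 in NE replicate 3.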

How the data were processed

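The deposited table holds whole-number counts per gene symbol for 14 libraries of cultured cells. Per the submitters' processing notes, the authors used STAR 2.4.2 and featureCounts on mm10; for annotation and strand setting the sources used here give nothing. The members and all lists were chosen with earlier results of these data known. Genes were filtered with filterByExpr, scaled by TMM and tested with edgeR 4.0.16 (R 4.3.3, quasi-likelihood, robust; Benjamini-Hochberg adjusted p under 0.05 is called) in 3 fits: the 6 NE and Non-NE libraries, the 8 YAP5SA libraries, and 13 libraries without NE replicate 2. CPM and edgeR fold changes were computed from the deposited counts, and lengths are union exons of GENCODE M21. On simulated data, the Non-NE against NE fit found 1 of 95 genes given a 2-fold change and 34 of 95 given a 4-fold one, and the day 21 against day 0 fit found 88 of 99 and 94 of 99. Beyond the members, the text names up to 3 called genes per list and direction with the largest change. Some results that this rule or the motif search gave are not reported here. Alternatives were DESeq2 1.42.0, limma-voom (limma 3.58.1), library totals, no filter, other sample sets, a replicate block and leaving out each library. Replicate numbers did not pair the libraries.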

Additional observations from a re-analysis of the deposited data

Results flagged for a closer look

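The change from day 0 to day 21 and the change from NE replicates 1 and 3 to Non-NE differed in edgeR for 8 genes of the MAX and MLX network, given as log2 differences (positive where the YAP5SA change was the higher). The 10 members and 4 further genes were tested. Of all 14820 genes 32.8% were called, 21.2% higher and 11.6% lower. The differences were 7.95 for Mycn, 5.32 for Mlxipl, 5.30 for Bmyc, 3.47 for Myc, 1.57 for Mxi1, 1.13 for Mga, 1.01 for Mlxip and -1.62 for Mxd3. The first 3 rest on 1 to 3 counts in Non-NE and depend on the prior count. Mlxip kept its call in 8 of 13 fits that leave out 1 library, and the other 7 genes in all 13.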

How the results depend on the processing

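The spread between libraries was wider in the NE and Non-NE fit (biological coefficient of variation 0.399) than in the fit of the days (0.0548). The number of members called, leaving out each library in turn, was 4 to 6 for Non-NE against NE, where 33.6% to 40.9% of all genes were called. Leaving out a YAP5SA library, or an NE library of the 13, leaves 1 library in its group. Member counts of those fits are not given. For the difference of changes 7 members were called without Non-NE replicate 3, where 36.3% of all genes were called. With all 14 libraries in one fit the number of members called was 1 for day 3, 3 for day 7 and 2 for day 21 against day 0. Of all genes 7.02%, 30.9% and 30.9% were called there. It was 1 for day 7 against day 3 (8.64% of all genes called) and 1 for day 21 against day 7 (3.47%). For day 0 against NE it was 0 in edgeR, where 0% of all genes were called (2 at an unadjusted p under 0.05, against 4 with DESeq2 and 4 with limma-voom on 13 libraries). Mxd4 at day 21 against Non-NE turned from -0.10 to 0.40 (edgeR adjusted p = 0.0242) without Non-NE replicate 3, and lay between -0.35 and 0.40 over all fits that leave out 1 library. With the replicate block 5 members were called between Non-NE and NE (Mnt lost), where 37.7% of all genes were called. In the day comparisons 8, 7, 6, 6 and 6 members were called with the block, as without it. Of all genes 47.9%, 70.5%, 71.0%, 55.0% and 49.7% were called there. Scaling by library totals moved the median gene by -0.26 (Non-NE against NE), -0.20 (day 7) and -0.14 (day 21), and changed genes called higher and lower from 2594 and 2960 to 1930 and 3757 for Non-NE against NE, from 5208 and 4724 to 4149 and 6116 for day 7 against day 0, from 4128 and 3657 to 3140 and 5076 for day 7 against day 3, and from 3149 and 1715 to 3602 and 1203 for the difference of changes. Of the alternatives for single genes, 2015 kept their side of the threshold, 89 lost a call, 51 gained one and 1 reversed; the cause was not tested.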

Other observations

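PRC1.6 with MGA and MAX is known to silence germline genes, so 18 such genes, chosen after the Max values were seen, were read without a test. Of these, 11 stayed under 1 CPM in every library. Stag3, a meiotic cohesin, held 346 CPM in NE replicate 2, 345 and 318 at day 0 and 373 and 399 at day 21, against 1.54 and 2.54 in NE replicates 1 and 3 and 0.161 to 8.54 in Non-NE. Tex101, a testis surface protein, held 16.9 and 18 CPM at day 0, 26.0 and 26.3 at day 21, and was at 0 in NE replicates 1 and 3 and in Non-NE. Other genes of the list did not follow this pattern: Tdrkh, which acts in the piRNA pathway, held 99.2 and 97.5 CPM at day 0 and 110.5 and 118 in NE replicates 1 and 3, and Sycp1, of the synaptonemal complex, was at 0 at day 0 and held 3.47 and 3.07 CPM in those replicates.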
